A study of Rattus norvegicus with 6 samples.

Results

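The genes described here are 51 genes of fatty acid oxidation and of the peroxisome, and the question was how their RNA level differed between the kidneys of 2 salt-fed rat strains. They comprise 19 genes of mitochondrial oxidation, 13 of peroxisomal oxidation, 10 peroxins, 6 acyl-CoA thioesterases and 3 ketone body genes. A gene was taken as measured where a probe set carried its symbol alone in the platform annotation, which held for 49 of the 51. Of these, 48 passed the filter on low values and were tested, beside 9540 tested genes in all. Acot12 did not pass the filter. Acaa1a had only a probe set shared with another symbol, and Slc22a5-ps was matched by no probe set. The RNA level of Acaa1a and Slc22a5-ps was therefore not analysed here.

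Whole kidneys were taken from male Dahl salt sensitive rats (labelled Dahl(S), here Dahl S), an inbred strain known to become hypertensive on salt, and from male Lewis rats. All 6 animals, 3 per strain, ate a diet with 8% NaCl for 8 weeks from the age of 5 weeks. Each rat was measured on its own Affymetrix oligonucleotide array, giving 1 signal intensity per probe set. Both strains received the high-salt diet and rats on a lower salt intake were not analysed here, so a difference between the strains at baseline and a difference in how they responded to salt cannot be told apart. Strain differences in the sequence under the probes were not masked. Across arrays, values correlated at 0.980 to 0.993 within a strain and at 0.958 to 0.970 between strains. All 23 proximal tubule markers with a probe set passed the filter on low values.

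Fatty acids enter oxidation as acyl-CoA. Carnitine palmitoyltransferases carry long-chain acyl groups into mitochondria, where acyl-CoA dehydrogenases, hydratases, hydroxyacyl-CoA dehydrogenases and thiolases shorten the chain step by step, while peroxisomes shorten very long and branched chains with enzymes imported by the peroxins. The proximal tubule of the kidney is known for its many mitochondria and peroxisomes and its reliance on fatty acids as fuel, and PPAR alpha is the nuclear receptor best known for switching these genes on.

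PPAR alpha binds, together with a retinoid X receptor, to a repeat of the hexamer AGGTCA with a single spacer base, AGGTCANAGGTCA, so the RefSeq promoters (GRCr8 assembly, 250 bases before to 50 bases after the start site) were searched for it on both strands. A promoter was held in that table for 44 of the 51 genes. No promoter among the 44 held the motif with all 12 fixed bases, against 0.0583% of the 27457 promoters in the table. With at most 1 mismatch it was found in 4 of the 44 (9.09%), against 0.463% of all promoters. The 4 matches are shown with the hexamers in capitals and the spacer in lower case, as read on the gene's own strand.
Acot8: GGGTCAgAGGTCA
Acadvl: AGGTCAgTGGTCA
Acot4: AGACCTcTGACCT
Acot12: TGACCTcTCACCT
The first pair reads in the forward direction, with its last base at position -10 from the start site for Acot8 and -5 for Acadvl. Acot4 and Acot12 hold the reverse complement, with the last base at -1 and -93. Of these 4, only Acot4 was lower in Dahl S past the threshold described in the next paragraphs. Acot8 and Acadvl were not past it and Acot12 was not tested. Among 14 promoters of genes that were lower, 1 (7.14%) held such a match, and among 28 promoters of tested genes that were not called lower, 2 (7.14%) did. With at most 2 mismatches the shares were 7.14% (1 of 14) and 17.9% (5 of 28), against 3.71% of all promoters. The 120 bases before the start site are printed for Acot8, whose level did not pass the threshold, and for Pex11a and Hacl1, which were among the genes with the largest differences and hold no such match in this window. Capitals mark the hexamers of the match. The windows lie on the minus strand at chr3:173962189-173962308, chr1:143096492-143096611 and chr16:6869411-6869530, in that order.
Acot8: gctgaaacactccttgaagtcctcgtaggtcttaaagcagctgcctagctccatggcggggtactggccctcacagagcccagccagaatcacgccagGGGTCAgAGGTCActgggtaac
Pex11a: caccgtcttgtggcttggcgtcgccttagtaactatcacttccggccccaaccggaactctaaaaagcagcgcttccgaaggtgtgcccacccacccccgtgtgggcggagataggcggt
Hacl1: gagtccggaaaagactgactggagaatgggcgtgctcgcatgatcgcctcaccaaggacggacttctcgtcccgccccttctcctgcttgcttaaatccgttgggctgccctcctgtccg
A match describes letters only and is not a measured binding site.

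The steepest differences were in the peroxisomal thioesterases Acot3 and Acot4, the peroxisome proliferation factor Pex11a, the carnitine palmitoyltransferase Cpt1b and the peroxisomal enzymes Hacl1 and Hsd17b4, with folds between 1.63 and 1.92. The trifunctional protein genes Hadha and Hadhb and the very long chain dehydrogenase Acadvl differed by 0.06 or less on the log2 scale. Of the 48 genes tested, 16 were lower in Dahl S and 1, the mitochondrial thiolase Acaa2, was higher, with 31 not past the threshold (limma, Benjamini-Hochberg adjusted p below 0.05 over 15797 probe sets). Over all 9540 genes, 7.62% were lower and 9.04% were higher, so the share of lower genes was 33.3% here. Over the 15797 single probe sets, 7.75% were lower and 8.50% were higher. The median difference of the 48 genes was -0.16 on the log2 scale, against 0 over all genes, and 36 of the 48 had a difference below 0. All 3 Dahl S arrays lay below all 3 Lewis arrays for 21 of the 48 genes, against 16.7% of all genes, and above them for 3, against 18.4%. The 48 genes were chosen with earlier results of these data known, and their counts describe these arrays. Values are normalized log2(signal + 16) throughout, a scale that understates differences of dim genes, and every difference is relative to the typical probe set because each array was given the same distribution of values.

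**Figure D1:**
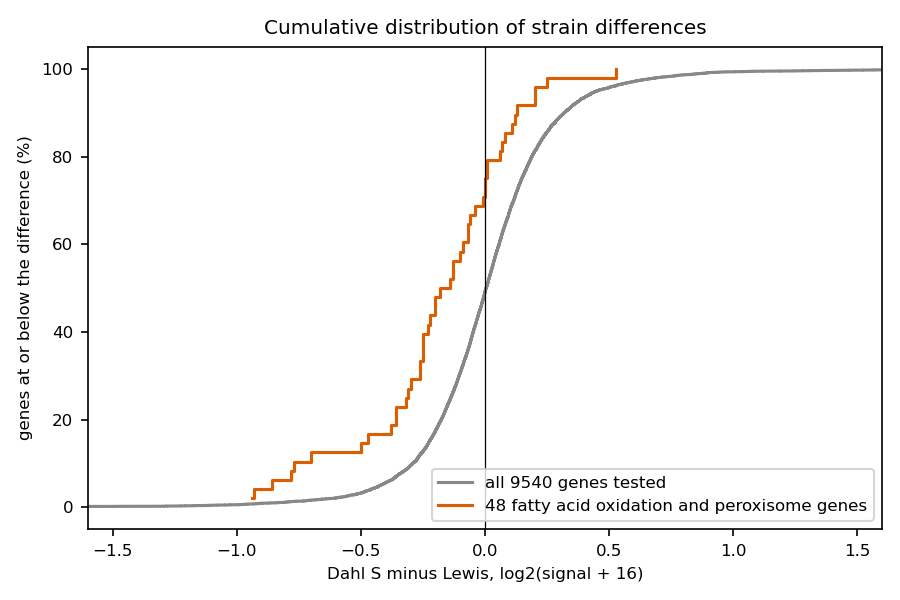
Cumulative percent of genes (y axis) at or below each difference between strains (x axis, Dahl S minus Lewis, log2(signal + 16)), for all 9540 genes tested in grey and for the 48 genes in orange. The orange curve lies to the left of the grey curve over most of its length, with a median of -0.16 against 0, and its last step at 0.53 is Acaa2.

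In the deposited intensities before normalization, Dahl S arrays were brighter on average, with a median difference of 0.41 over all genes and of 0.22 over the 48. The strains overlapped in array brightness. The median intensity was 38.9, 69.7 and 53.7 on Lewis 1, 2 and 3, and 70.4, 81.2 and 63.4 on Dahl S 1, 2 and 3. No gene of the 48 passed the threshold on that scale by limma, where 0 were lower and 3 were higher at an unadjusted p below 0.05. Of all 9677 genes tested on that scale, 22 (0.227%) were lower past the threshold and 371 were higher. Sums over the genes on the normalized linear scale ran from 59807 to 61726 on the Dahl S arrays and from 65534 to 67352 on the Lewis arrays. In bulk tissue, fewer cells that express a gene and less RNA per cell cannot be told apart. Nothing in the labels beyond a replicate number separates the replicates. The p-values rest on the spread between these rats, of which there were 3 per strain. In limma each variance was also drawn toward a trend over all probe sets tested.

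**Figure D2:**
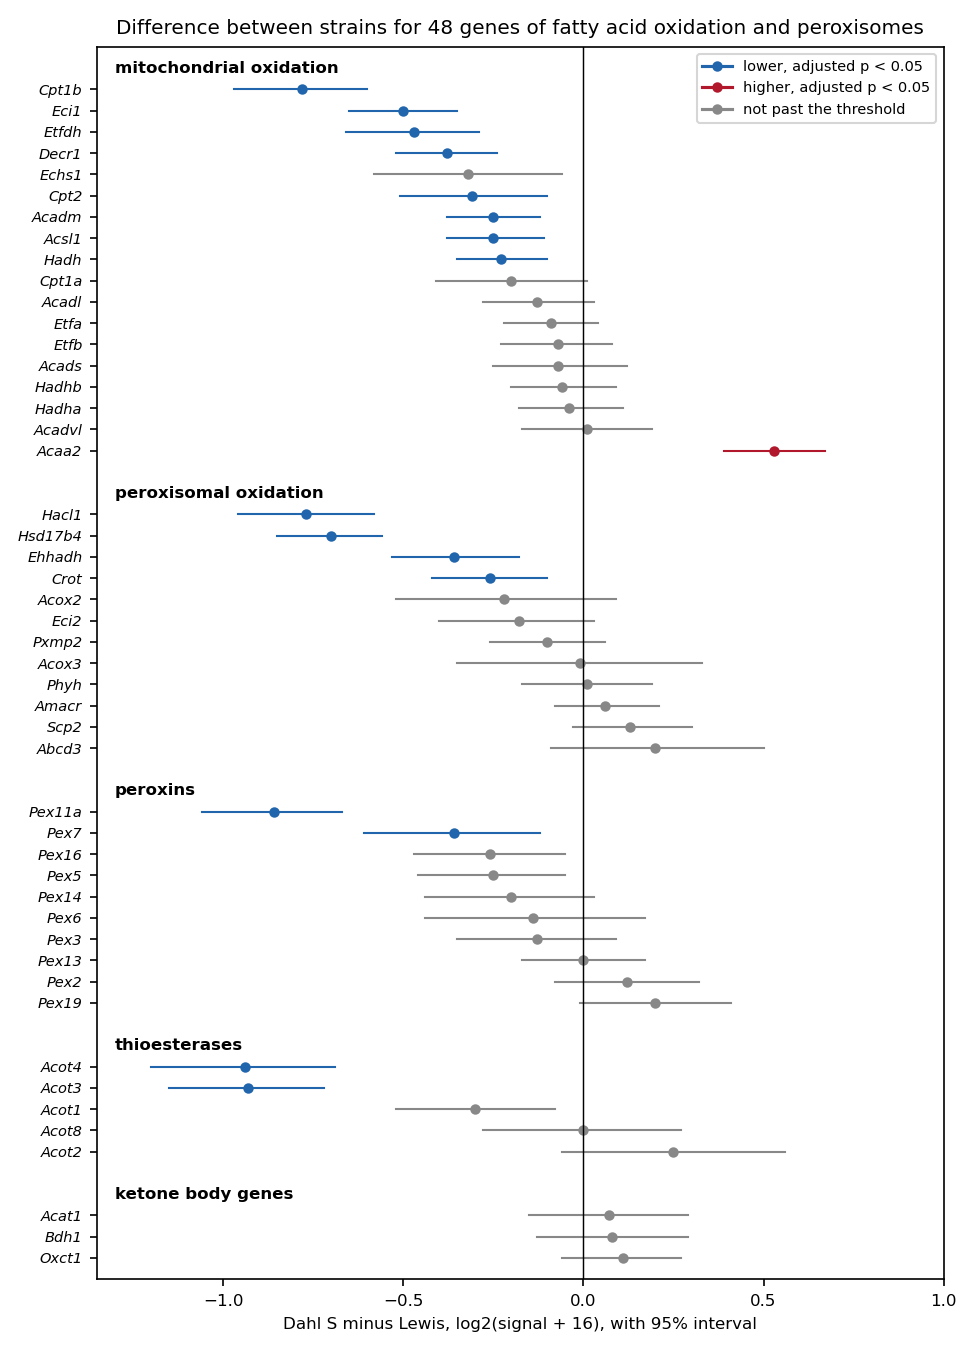
Difference between strains (x axis, Dahl S minus Lewis, log2(signal + 16), with the 95% interval) for each of the 48 genes, ordered within their roles. Blue marks the 16 genes lower past an adjusted p of 0.05, red the 1 higher gene and grey the 31 others. The blue points lie between -0.94 and -0.23, the only red point is Acaa2 at 0.53, and no ketone body gene is coloured.

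Mitochondrial oxidation held the largest number of lower genes. Of the 18 tested, 8 were lower (44.4%), 1 was higher and 9 were not past the threshold, with a median difference of -0.22. The summed signal of the group ran from 28912 to 30341 in Dahl S and from 32753 to 33607 in Lewis, so the strains did not overlap. Without Dahl S 2, and likewise without Dahl S 3, 4 mitochondrial genes were lower. Of all genes, 5.00% and 4.39% were lower in those fits.

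Entry into the mitochondrion was the step with the largest single difference. Cpt1b, the carnitine palmitoyltransferase 1 known as the muscle isoform, measured 8.79, 8.74 and 8.76 on the Lewis arrays and 7.96, 7.93 and 8.05 on the Dahl S arrays. The strains were far apart and each was tight. Cpt1b was 1.72-fold lower in Dahl S (difference -0.78, SE 0.09, 95% interval -0.97 to -0.60, adjusted p = 5.9e-05). Of the muscle marker genes Ckm, Myh6, Myh7 and Mb, none passed the filter on low values, and the 2 muscle markers that did summed to 146 to 165 in Lewis and 177 to 226 in Dahl S. Cpt2, the partner enzyme on the inner membrane, measured 8.40, 8.63 and 8.42 in Lewis and 8.16, 8.17 and 8.20 in Dahl S. Lewis 2 stood highest, and the strains did not overlap. Its difference of -0.31 (SE 0.09, adjusted p = 0.044) was the closest to the threshold beside that of Pex7. Without Lewis 2 it was -0.23 (adjusted p = 0.14), and it also missed the threshold without Dahl S 1 (-0.30, adjusted p = 0.14), without Dahl S 2 (-0.30, adjusted p = 0.13) and without Dahl S 3 (-0.32, adjusted p = 0.13).

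Cpt1a, the isoform of liver and kidney, was measured by 2 probe sets that gave unlike calls. The brighter gave 10.54, 10.94 and 10.93 in Lewis and 10.59, 10.61 and 10.61 in Dahl S. Lewis 1 lay below the Dahl S arrays there and the other Lewis arrays lay above them. The difference was -0.20 (95% interval -0.41 to 0.01, adjusted p = 0.19), and without Lewis 1 it was -0.33 (adjusted p = 0.0016). The other probe set gave 9.85, 9.82 and 9.65 in Lewis and 9.28, 9.06 and 9.26 in Dahl S. These ranges did not overlap, with a difference of -0.57 (SE 0.09, adjusted p = 0.00087). Acsl1, a long-chain acyl-CoA synthetase that activates fatty acids, was 10.80, 10.84 and 10.76 in Lewis and 10.53, 10.57 and 10.57 in Dahl S, a small gap with little spread. It was 1.19-fold lower (difference -0.25, SE 0.06, adjusted p = 0.017), and its other tested probe set gave -0.49 (SE 0.09, adjusted p = 0.0021). The first value missed the threshold without Dahl S 1 (-0.24, adjusted p = 0.082), Dahl S 2 (-0.25, adjusted p = 0.066), Dahl S 3 (-0.26, adjusted p = 0.078) or Lewis 2 (-0.22, adjusted p = 0.052).

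Among the 4 acyl-CoA dehydrogenases of the list, Acadm, Acadl, Acads and Acadvl, only Acadm passed the threshold. Acadm, the medium-chain dehydrogenase, was one of the brightest signals, at 12.33, 12.31 and 12.29 in Lewis and 12.17, 11.96 and 12.05 in Dahl S. The strains did not overlap, and it was 1.19-fold lower in Dahl S (difference -0.25, SE 0.06, adjusted p = 0.013). Without Dahl S 2 the difference was -0.20 (adjusted p = 0.079) and without Dahl S 3 it was -0.25 (adjusted p = 0.061). The dehydrogenases of other chain lengths had intervals that included 0. The difference was -0.13 for the long-chain Acadl (-0.28 to 0.03), -0.07 for the short-chain Acads (-0.25 to 0.12) and 0.01 for Acadvl (-0.17 to 0.19). Electrons from these enzymes pass through the flavoprotein Etfa-Etfb to Etfdh, its ubiquinone oxidoreductase. Etfdh was 9.66, 9.84 and 9.89 in Lewis and 9.42, 9.30 and 9.25 in Dahl S, without overlap. It was 1.39-fold lower (difference -0.47, SE 0.09, adjusted p = 0.0027). Its partners were at -0.09 for Etfa (-0.22 to 0.04) and -0.07 for Etfb (-0.23 to 0.08).

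The auxiliary enzymes that deal with double bonds of unsaturated fatty acids, Eci1 and Decr1, were both lower. Eci1, an enoyl-CoA isomerase, measured 10.76, 10.89 and 10.81 in Lewis and 10.25, 10.33 and 10.37 in Dahl S, and it was 1.41-fold lower (difference -0.50, SE 0.07, adjusted p = 0.00033). Decr1, the dienoyl-CoA reductase, measured 11.10, 10.93 and 11.05 in Lewis and 10.61, 10.65 and 10.67 in Dahl S, and it was 1.30-fold lower (difference -0.38, SE 0.07, adjusted p = 0.0019). For both genes every Dahl S array lay below every Lewis array.

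The later steps of the spiral moved in opposite directions or were not past the threshold. Hadh, the hydroxyacyl-CoA dehydrogenase for shorter chains, measured 11.56, 11.53 and 11.52 in Lewis and 11.36, 11.32 and 11.25 in Dahl S. The gap was small beside a very small spread, and Hadh was 1.17-fold lower (difference -0.23, SE 0.06, adjusted p = 0.017). Without Dahl S 2 the difference was -0.23 (adjusted p = 0.065) and without Dahl S 3 it was -0.20 (adjusted p = 0.11). Acaa2, the thiolase that releases acetyl-CoA at the end of each round, went the other way. It measured 10.53, 10.53 and 10.40 in Lewis and 11.04, 11.00 and 11.01 in Dahl S. All Dahl S arrays were higher, and the gene was 1.44-fold higher (difference 0.53, SE 0.06, 95% interval 0.39 to 0.67, adjusted p = 0.00013). A much dimmer Acaa2 probe set was above the median on 0 of 6 arrays and was not tested. It measured 5.70, 5.99 and 5.67 in Lewis and 5.29, 5.25 and 5.11 in Dahl S, lower without overlap. The hydratase Echs1 had a difference of -0.32 (-0.58 to -0.06, adjusted p = 0.093), with all Dahl S arrays below all Lewis arrays. The trifunctional protein, whose adjacent genes Hadha and Hadhb are on chromosome 6, was at -0.04 (-0.18 to 0.11) and -0.06 (-0.20 to 0.09).

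**Figure D3:**
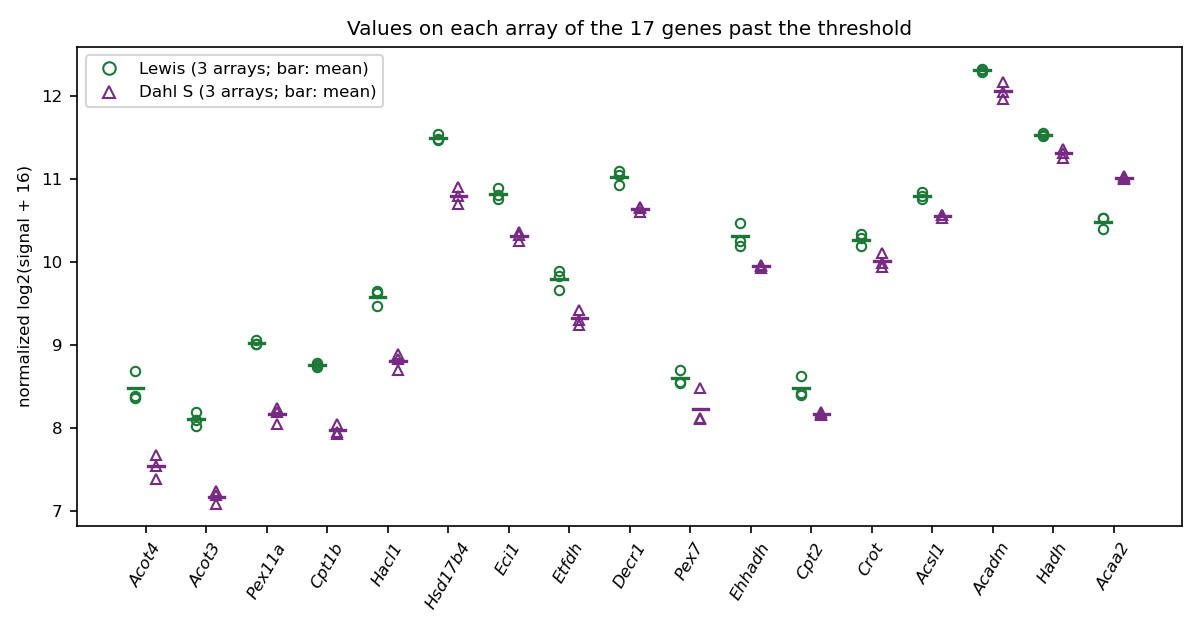
Normalized log2(signal + 16) (y axis) on each of the 6 arrays for the 17 genes past the threshold, with Lewis as circles, Dahl S as triangles and a bar at the mean of each strain. In the first 16 genes the triangles lie below the circles without overlap, and in Acaa2 they lie above them, between 11.00 and 11.04.

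In peroxisomal oxidation, 4 of the 12 genes tested were lower (33.3%) and 8 were not past the threshold, with a median difference of -0.14. None was higher by limma. At an unadjusted p below 0.05 in limma, 4 were lower and 0 higher, against 1371 and 1503 of all 9540 genes. The group's summed signal ran from 17041 to 17750 in Dahl S and from 18219 to 19722 in Lewis.

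Hsd17b4, the peroxisomal bifunctional protein that hydrates and dehydrogenates straight and branched chains, was the brightest of the 4. It measured 11.54, 11.47 and 11.49 in Lewis and 10.91, 10.70 and 10.80 in Dahl S. The gap between strains was several times the spread within them, and the gene was 1.63-fold lower (difference -0.70, SE 0.07, 95% interval -0.85 to -0.56, adjusted p = 2e-05). Hacl1, the lyase of alpha oxidation that shortens phytanic acid derivatives by a single carbon, measured 9.63, 9.47 and 9.65 in Lewis and 8.84, 8.90 and 8.70 in Dahl S. It was 1.70-fold lower, again without overlap (difference -0.77, SE 0.09, 95% interval -0.96 to -0.58, adjusted p = 8.4e-05). Phyh, the hydroxylase one step before Hacl1, had a difference of 0.01 (-0.17 to 0.19, adjusted p = 0.95).

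Ehhadh, the other peroxisomal bifunctional enzyme, measured 10.47, 10.26 and 10.20 in Lewis and 9.95, 9.93 and 9.97 in Dahl S. Lewis 1 was the highest array, the Dahl S arrays were close together, and the gene was 1.28-fold lower (difference -0.36, SE 0.08, adjusted p = 0.0098). Crot, the octanoyltransferase that hands shortened chains to carnitine for export to mitochondria, measured 10.29, 10.19 and 10.34 in Lewis and 9.99, 10.11 and 9.94 in Dahl S. The ranges lay close without overlap, and Crot was 1.20-fold lower (difference -0.26, SE 0.08, adjusted p = 0.035). The Crot value missed the threshold without Dahl S 1 (-0.25, adjusted p = 0.12), Dahl S 3 (-0.22, adjusted p = 0.18) or Lewis 3 (-0.22, adjusted p = 0.085). A dimmer probe set of Crot gave 9.24, 9.30 and 9.08 in Lewis and 8.69, 8.64 and 8.59 in Dahl S, a wider gap, with a difference of -0.56 (SE 0.09, adjusted p = 0.00084).

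The remaining peroxisomal genes had intervals that included 0. They were the oxidases Acox2 (-0.22, -0.52 to 0.09) and Acox3 (-0.01, -0.35 to 0.33), the racemase Amacr (0.06, -0.08 to 0.21), the isomerase Eci2 (-0.18, -0.40 to 0.03), the membrane protein Pxmp2 (-0.10, -0.26 to 0.06) and the acyl-CoA transporter Abcd3 (0.20, -0.09 to 0.50). Scp2, which encodes a thiolase and a sterol carrier protein, had a difference of 0.13 at its brightest probe set (-0.03 to 0.30). Its other probe set gave 10.04, 10.26 and 10.26 in Lewis and 10.60, 10.45 and 10.59 in Dahl S, higher without overlap (0.36, SE 0.08, adjusted p = 0.0091).

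The peroxins, which build and divide the organelle and import its enzymes, showed a single large difference. Of the 10 tested, 2 were lower (20%) and 8 were not past the threshold, with a median of -0.17. The count was 1 without Dahl S 1, Dahl S 2, Lewis 2 or Lewis 3, where 4.77% to 7.88% of all genes were lower. The group's summed signal ran from 2993 to 3147 in Dahl S and from 3431 to 3607 in Lewis. None was higher by limma. At an unadjusted p below 0.05 in limma, 4 were lower and 0 higher, against 1371 and 1503 of all 9540 genes. Pex11a, which promotes the elongation and division of peroxisomes and is a known PPAR alpha target, measured 9.02, 9.06 and 9.01 in Lewis and 8.20, 8.05 and 8.25 in Dahl S. Each Dahl S array was far below the Lewis arrays, and Pex11a was 1.82-fold lower (difference -0.86, SE 0.09, 95% interval -1.06 to -0.67, adjusted p = 3.5e-05). A second Pex11a probe set gave 7.54, 7.65 and 7.39 in Lewis and 6.46, 6.48 and 6.43 in Dahl S. It showed the same order, 2.10-fold lower (difference -1.07, SE 0.11, adjusted p = 5e-05).

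Pex7, the import receptor for the minority of enzymes with a signal near the amino terminus, was lower by a margin close to the threshold. It measured 8.55, 8.56 and 8.70 in Lewis and 8.11, 8.12 and 8.48 in Dahl S. Dahl S 3 lay near the Lewis range and the others well below it, and the difference was -0.36 (SE 0.11, 95% interval -0.61 to -0.12, adjusted p = 0.044). Pex7 missed the threshold without Dahl S 1 (-0.30, adjusted p = 0.18), Dahl S 2 (-0.30, adjusted p = 0.17), Lewis 2 (-0.38, adjusted p = 0.085) or Lewis 3 (-0.32, adjusted p = 0.11). Pex5, the receptor for most peroxisomal enzymes, was at -0.25 (-0.46 to -0.05, adjusted p = 0.09), and Pex16, which helps to form the membrane, was at -0.26 (-0.47 to -0.05, adjusted p = 0.094). In both, all Dahl S arrays lay below all Lewis arrays. The membrane protein chaperone Pex19 was at 0.20 (-0.01 to 0.41) and Pex2, a ligase subunit of the import machinery, at 0.12 (-0.08 to 0.32), with all Dahl S arrays above all Lewis arrays in both. Pex3, Pex6, Pex13 and Pex14 had differences between -0.20 and 0.

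Acyl-CoA thioesterases hydrolyse acyl-CoA to the free acid, and Acot4 and Acot3, which act in the peroxisome, had the largest differences among the 48 genes. Of the 5 tested, 2 were lower (40%) and 3 were not past the threshold, with a median of -0.30. None was higher by limma. At an unadjusted p below 0.05 in limma, 3 were lower and 0 higher, against 1371 and 1503 of all 9540 genes. Acot4 measured 8.39, 8.69 and 8.37 in Lewis and 7.68, 7.39 and 7.55 in Dahl S. The strains did not overlap, and Acot4 was 1.92-fold lower (difference -0.94, SE 0.12, 95% interval -1.20 to -0.69, adjusted p = 0.00015). Acot3 measured 8.03, 8.20 and 8.10 in Lewis and 7.09, 7.24 and 7.20 in Dahl S. It was 1.91-fold lower, with little spread in either strain (difference -0.93, SE 0.10, 95% interval -1.15 to -0.72, adjusted p = 5.1e-05). Acot3 and Acot4 are adjacent on chromosome 6 in the RefSeq order. Each was measured by a single probe set, and whether it also reads related genes of the cluster was not tested.

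The cytosolic Acot1 and the mitochondrial Acot2 belong to the same cluster and are near-identical relatives, and some probe sets carry both symbols, so their values are uncertain. Acot1 measured 10.40, 10.12 and 10.43 in Lewis and 9.84, 10.16 and 10.06 in Dahl S. Lewis 2 lay among the Dahl S arrays, and the difference was -0.30 (SE 0.10, -0.52 to -0.08, adjusted p = 0.066). Without Lewis 2 it was -0.40 (adjusted p = 0.025). The 3 tested probe sets of Acot2 went opposite ways. The brightest gave 0.25 (-0.06 to 0.56, adjusted p = 0.27), the others gave -0.58 (SE 0.13, adjusted p = 0.0077) and -0.18 (adjusted p = 0.24), and the mean of all 3 gave -0.17. The probe set at -0.58 measured 8.11, 8.08 and 7.83 in Lewis and 7.50, 7.20 and 7.60 in Dahl S, without overlap. Acot8, a peroxisomal thioesterase of broad chain range, had a difference of 0 (-0.28 to 0.27). Acot12, which hydrolyses acetyl-CoA, was above the median on 2 of 6 arrays and measured 6.64, 6.13 and 6.67 in Lewis and 6.16, 5.82 and 6.15 in Dahl S, a range that overlapped.

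Ketone body genes were not past the threshold in either direction, and 0 of the 3 had an unadjusted p below 0.05 in limma. Of all 9540 genes, 1371 were lower and 1503 higher at that level. Oxct1, which activates acetoacetate for use as fuel, measured 12.28, 12.31 and 12.02 in Lewis and 12.23, 12.35 and 12.36 in Dahl S. The strains overlapped, and the difference was 0.11 (-0.06 to 0.27). The thiolase Acat1 was at 0.07 (-0.15 to 0.29) and the hydroxybutyrate dehydrogenase Bdh1 at 0.08 (-0.13 to 0.29). A dimmer probe set of Bdh1 measured 7.04, 6.96 and 7.08 in Lewis and 7.36, 7.34 and 7.52 in Dahl S, higher without overlap (0.38, SE 0.11, adjusted p = 0.031). The group's summed signal ran from 7903 to 8357 in Dahl S and from 7292 to 8257 in Lewis.

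Several genes were measured by more than 1 tested probe set, and 13 of the 48 were. In 10 of these all tested probe sets had a difference of the same sign, the exceptions being Phyh, Acat1 and Acot2. In 4, namely Cpt1a, Scp2, Acot2 and Bdh1, the probe sets gave unlike calls. Dim probe sets that did not pass the filter went against the gene's call, without overlap, in Acaa2, Hadh and Crot.

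**Figure D4:**
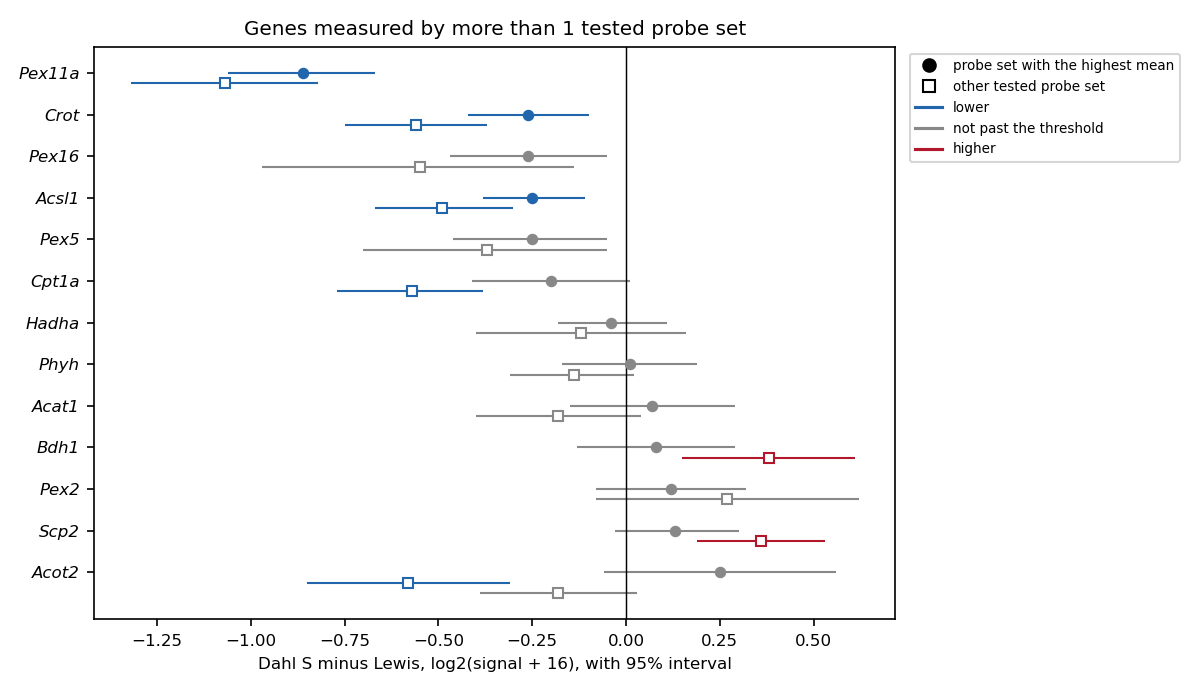
Difference between strains (x axis, Dahl S minus Lewis, log2(signal + 16), with the 95% interval) for the 13 genes with more than 1 tested probe set, with the brightest probe set as a filled circle and others as open squares. Blue, red and grey mark lower, higher and not past an adjusted p of 0.05. Both Pex11a probe sets lie at the far left, at -0.86 and -1.07, and the Acot2 probe sets lie on both sides of 0.

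Genes of the same pathways outside the 51 differed in both directions. Of 19 other mitochondrial fatty acid genes tested, 3 were lower and 2 were higher. Over all 9540 genes, 7.62% were lower and 9.04% were higher. Acadsb, the dehydrogenase of short branched chains from isoleucine, measured 9.56, 9.69 and 9.82 in Lewis and 8.25, 8.21 and 8.13 in Dahl S. That gap was wider than for any of the 48 genes tested, 2.82-fold lower (difference -1.50, SE 0.09, adjusted p = 4.3e-07). Acsl3, a long-chain acyl-CoA synthetase, was also lower (-0.34, SE 0.09, adjusted p = 0.016), as was the dehydrogenase family member Acad11 (-0.29, SE 0.09, adjusted p = 0.044). The dehydrogenase family members Acad9 (0.57, SE 0.09, adjusted p = 0.0011) and Acad10 (0.62, SE 0.14, adjusted p = 0.011) were higher.

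Of 26 other peroxisome genes tested, 5 were lower and 2 were higher, with a median difference of -0.11. The shares over all genes were 7.62% lower and 9.04% higher. Pecr, the peroxisomal trans-enoyl-CoA reductase, measured 11.85, 12.06 and 12.07 in Lewis and 11.12, 11.06 and 11.08 in Dahl S, which was 1.87-fold lower (-0.90, SE 0.07, adjusted p = 2.8e-06). Cat, the catalase that removes the hydrogen peroxide made by peroxisomal oxidases, measured 12.60, 12.54 and 12.52 in Lewis and 12.29, 12.18 and 12.17 in Dahl S, which was 1.26-fold lower (-0.34, SE 0.05, adjusted p = 0.00097). Neither overlapped between strains. The peroxisomal membrane protein gene Pxmp4 went strongly the other way, at 7.88, 7.47 and 7.58 in Lewis and 9.58, 9.64 and 9.62 in Dahl S. It was 3.92-fold higher (1.97, SE 0.11, adjusted p = 1.6e-07), and a second probe set gave 1.44 (SE 0.10, adjusted p = 1.3e-06). Idi1, an isomerase of isoprenoid synthesis, was higher (0.53, SE 0.08, adjusted p = 0.00086), while its other probe set gave 0.33 (adjusted p = 0.13). Of the 2 other ketone genes tested, the dehydrogenase Bdh2 was lower (-0.41, SE 0.12, adjusted p = 0.033).

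Of 19 regulators and PPAR target genes tested, 4 were lower and 15 were not past the threshold, against 7.62% lower over all genes. The lower genes were the fatty acid hydroxylases Cyp4a1 (-0.50, SE 0.08, adjusted p = 0.00088) and Cyp4a3 (-0.35, SE 0.06, adjusted p = 0.0019), the pantetheinase Vnn1 (-0.49, SE 0.09, adjusted p = 0.0034) and the retinoid X receptor Rxra (-0.45, SE 0.14, adjusted p = 0.047). The probe set of Ppara, the gene of PPAR alpha, did not pass the filter on low values and was not tested. Ppargc1a, its coactivator, had a difference of -0.07 (-0.25 to 0.10). Hnf4a, a nuclear receptor of the proximal tubule, had -0.12 at its brightest probe set (-0.25 to 0, adjusted p = 0.17), and -0.55 (SE 0.09, adjusted p = 8e-04) and -0.50 (SE 0.09, adjusted p = 0.0034) at 2 others. Further genes of this list had probe sets with unlike calls. Plin2, which coats lipid droplets and is a PPAR target, had 0.16 at its brightest probe set (0.01 to 0.31, adjusted p = 0.15) and 1.22 at the other (SE 0.14, adjusted p = 0.00011). The corepressor Ncor1 had -0.02 at its brightest (-0.21 to 0.16, adjusted p = 0.89), and -0.86 (SE 0.11, adjusted p = 0.00018) and 0.20 (adjusted p = 0.28) at the others.

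Markers of kidney cell types also differed, and their part in these results was not tested. The counts below stand beside 7.62% lower and 9.04% higher over all genes. Of 23 proximal tubule markers, 9 were lower and 2 higher, with a median of -0.16, and their summed signal was 90199 to 90958 in Dahl S and 96948 to 101023 in Lewis. Of 9 tubular injury markers, 7 were higher, with a sum of 14948 to 15121 in Dahl S and 7687 to 8422 in Lewis. Fibroblast and smooth muscle markers were higher in 4 of 7, summing to 5943 to 6070 against 3405 to 4210, and leukocyte markers in 5 of 8, summing to 5480 to 6138 against 4564 to 5365. Of 5 adipocyte markers tested, 1 was lower and 1 higher, with differences between -0.33 (Cidec) and 0.71 (Fabp4). The sum of adipocyte markers was 1102 to 1159 in Dahl S and 1132 to 1215 in Lewis, and Plin1, Lep, Cfd and Ucp1 did not pass the filter. Podocyte markers were lower in 3 of 5 and endothelial markers in 3 of 6, with sums of 1637 to 1705 and 2931 to 3074 in Dahl S against 2146 to 2210 and 3772 to 3799 in Lewis. Markers of the thick ascending limb and distal tubule, and likewise of the collecting duct, had 1 lower and 1 higher gene each. Of the hepatocyte markers, Alb, Apoa1, Ttr and Fgb did not pass it either, and the 1 tested, Apoc3, an apolipoprotein of triglyceride-rich particles, was lower (-0.40, SE 0.08, adjusted p = 0.005).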

How the data were processed

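Kidney RNA of 3 Lewis and 3 Dahl S rats was measured on 1 array each. Groups and replicate numbers came from the sample titles. The deposited values are linear signal intensities that the authors computed with GeneChip Operating Software 1.4, per the labels. They were not at a common level: the median intensity of an array lay between 38.9 and 81.2. The scaling target is not given in the sources used here.

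After 57 control probe sets were removed, log2(signal + 16) was quantile normalized. A probe set was tested where 3 or more of the 6 arrays lay above the overall median value, leaving 15797. The strains were compared with limma 3.58.1 in R 4.3.3 (two-sided, lmFit followed by eBayes with variance trend). P-values were adjusted by Benjamini-Hochberg, and 0.05 was the threshold. The fit was also run on simulated data with normal noise drawn from its own fitted variances. Such data hold no array brightness or probe sequence differences, so they cannot test those. Intervals are 95% and SEs are limma's, with n = 3 per strain. Precision is limited by the number of arrays, and for 3 against 3 the smallest p of an exact permutation test is 0.1.

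Names came from the platform annotation, updated by gene identifier to RefSeq (20758 of 20826 probe sets with 1 symbol matched). Control probe sets aside, 436 had several symbols and named no gene. A gene was represented by its tested probe set with the highest mean. All array values are given for genes past the threshold and for the largest difference in each role. Of the other pathway lists, up to 4 genes with the smallest adjusted p, and a few regulators and enzymes whatever their values, were named. Where more probe sets or pathway genes are described, they were chosen after their values were seen. The 51 genes and all lists were chosen with earlier results of these data known. The alternatives were other normalizations, pseudocounts, filters and gene summaries, no variance trend, the replicate number as a block, and each array left out.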

Additional observations from a re-analysis of the deposited data

How the results depend on the processing

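Of the 16 lower genes, 10 (Cpt1b, Eci1, Decr1, Etfdh, Ehhadh, Hsd17b4, Hacl1, Pex11a, Acot3 and Acot4) passed the threshold under every alternative except the deposited intensities without normalization, and so did the higher Acaa2. On those intensities 0 of the 48 genes were lower and 0 were higher. Hence 0 were lower in mitochondrial and peroxisomal oxidation, peroxins and thioesterases and 0 were higher in mitochondrial oxidation. Of all 9677 genes tested on those intensities, 22 (0.227%) were lower and 371 were higher. At an unadjusted p below 0.05 in limma, 0 of the 48 genes were lower and 3 higher. Leaving out an array gave 11 to 17 lower genes and 1 higher, with 4 to 9 lower and 1 higher in mitochondrial oxidation, 3 to 4 in peroxisomal oxidation, 1 to 2 peroxins, 2 to 3 thioesterases and 0 ketone genes. Without Dahl S 2 or 3 the lower genes were 11. Over all genes, 4.39% to 8.30% were lower in these fits. Without the variance trend 10 were lower, 4 of them mitochondrial, against 6.37% of all genes. The peroxins had 1 lower gene with a common median, no filter or no variance trend. They had 4 when the probe sets of a gene were averaged, where 2 of the 48 genes were higher and 1 of these was peroxisomal. Of all genes, 7.63% were lower with a common median. With averaged probe sets 8.92% were lower, and 863 of 9540 were higher. With no filter 12 of 49 genes were lower, against 3.78% of all genes. The replicate block gave 14 lower and 1 higher, against 7.51% of all genes lower. Same-numbered replicates deviated with correlations of -0.05, -0.10 and 0.11, so the numbers were not taken as pairs.

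The sign turned in 25 genes on the deposited intensities, where the median of all genes was 0.41: Cpt1a 0.17, Cpt2 0.12, Acsl1 0.12, Acadl 0.22, Acadm 0.03, Acads 0.37, Hadha 0.33, Hadhb 0.26, Hadh 0.09, Echs1 0.07, Etfa 0.26, Etfb 0.26, Acox2 0.14, Acox3 0.36, Ehhadh 0.04, Crot 0.15, Eci2 0.21, Pxmp2 0.33, Pex3 0.29, Pex5 0.19, Pex6 0.22, Pex7 0.07, Pex14 0.22, Pex16 0.17 and Acot1 0.10. Other turns were of genes not past the threshold. With a common median they were Scp2 -0.01, Amacr -0.08, Phyh -0.13, Acat1 -0.02 and Oxct1 -0.06, and with the mean of probe sets Phyh -0.07, Acot2 -0.17 and Acat1 -0.05. Leaving out an array, Acadvl ran from -0.05 to 0.06 and Acox3 from -0.12 to 0.16, including Acadvl -0.02 and -0.01 and Acox3 0.02. Such fits also gave Acat1 -0.07 and Phyh -0.09, -0.02 and -0.01. The cause was not tested.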
